A study of Mus musculus with 14 samples.

Results

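The genes described here encode the proteins of the cytosolic ribosome, and 78 of the 32289 genes measured in mouse ascending aorta were members. A gene was a member when its symbol followed the naming pattern of ribosomal proteins (Rpl or Rps with a number, or Rplp0, Rplp1, Rplp2 or Rpsa) and when its mean over all 14 libraries reached 20 FPKM, the fragments counted per kilobase of gene, scaled to sequencing depth. The pattern held for 88 genes, and 10 of these lay below 20 FPKM. Of the members, 46 belong to the large subunit and 32 to the small subunit. The members were thus chosen by their mean FPKM in these same libraries, and their being abundant is a description and not a result.

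The cytosolic ribosome has a small subunit, which reads the mRNA, and a large subunit, which joins amino acids. Each subunit holds one copy of nearly every one of its proteins, and surplus ribosomal protein is degraded. The mRNAs of these proteins carry a pyrimidine run at their first base, the 5′ terminal oligopyrimidine (5′TOP) motif, through which the TOR kinase and Larp1 control their translation together. Bulk RNA levels do not measure that translational step.

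All mice were labelled C57BL/6 and ascending aortic tissue was taken at week 6, with bulk RNA-seq libraries from 4 groups. BAPN+SB273005 (4 libraries) and BAPN+Cilengitide (3 libraries) combined BAPN with SB273005 or with the cyclic peptide Cilengitide, both inhibitors of integrin αV. BAPN alone (4 libraries) was the aneurysm model: BAPN, β-aminopropionitrile, inhibits lysyl oxidase, which cross-links collagen and elastin. PBS (3 libraries) was the control. The labels give no dose, sex or age. They also do not say whether each library is a different mouse, so the tests reflect variation among the libraries, part of which may be technical.

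Estimated counts totalled 49027885 to 72584877 per library. None of the 8 smooth muscle markers, Acta2 among them, was at 0 in all libraries of a group. Their summed levels were 1167 to 6995 FPKM in BAPN+SB273005, 6066 to 8034 FPKM in BAPN+Cilengitide, 6957 to 10587 FPKM in BAPN and 8940 to 10628 FPKM in PBS. BAPN+SB273005 replicate 2 held the lowest smooth muscle sum and the highest share of counts from mitochondrially encoded genes, 17.9%, against 4.10% to 10.2% in the other libraries. B and plasma cell markers summed to 249 FPKM in PBS replicate 1 and to 1.00 to 11.4 FPKM in the other 13. The class II gene H2-Ea had 0 counts in 6 libraries (all of PBS and BAPN+SB273005 replicates 1 to 3) and 83 to 130 counts in the other 8. All carry the same strain label, C57BL/6, so that label does not separate these sets. For BAPN against PBS and for BAPN+Cilengitide against PBS, this library set and the treatment cannot be told apart in a comparison of those groups alone. When BAPN+SB273005 is compared with BAPN or BAPN+Cilengitide, only its replicate 4 shares the set of the other group. Set and treatment are largely mixed there too.

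The start-site sequences below are examples from the 58 of 78 members matched to a start in RefSeq on GRCm38.p6. Most of those printed hold the pyrimidine run, whereas 46.6% of the 58 members hold it within 5 bases of the start. Each window runs from 15 bases before the annotated start to the 15 bases that begin with it, 5′ to 3′ on the transcribed strand. A run was a C followed by at least 4 bases that are C or T, searched on that strand only. Capitals mark the run from the qualifying C nearest the start, so the same pyrimidines can extend further upstream.

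Rps15a, chr7:118116133-118116162, minus strand: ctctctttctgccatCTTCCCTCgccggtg
Rpl38, chr11:114668565-114668594, plus strand: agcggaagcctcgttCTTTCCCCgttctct
Rps6, chr4:86857353-86857382, minus strand: aagcggaagtcgggcCTCTTTTTCgtgacg
Rps18, chr17:33955651-33955680, minus strand: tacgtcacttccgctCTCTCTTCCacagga
Rpl28, chr7:4792950-4792979, plus strand: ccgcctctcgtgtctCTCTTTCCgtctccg
Rps24, chr14:24490663-24490692, plus strand: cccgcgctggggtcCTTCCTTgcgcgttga
Rpl10, chrX:74270801-74270830, plus strand: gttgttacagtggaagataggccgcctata

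In Rps15a, Rpl38, Rps6, Rps18 and Rpl28 a C that heads such a run stood at the annotated start itself. In Rps24 the nearest such C stood 1 base upstream. In Rps6, Rps18, Rpl28 and Rps24 a C further upstream also meets the rule, so the pyrimidines begin before the capitals. The RefSeq start of Rpl10 had no such run within 5 bases, and neither did that of Rpl4, which is not printed. A C heading such a run stood at the start itself in 12 of the 58 members, 20.7%, against 2.49% of 27025 genes with a promoter entry. Within 5 bases of the start the shares were 46.6% of members (15 of 34 in the large and 12 of 24 in the small subunit) and 18.5% of all genes. Annotated starts can lie some bases from the true one, so a missing run says only that these letters are not in the window.

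Gene levels spanned a wide range. The stalk protein gene Rplp1 was the highest member, with 1049 ± 186 FPKM in BAPN+SB273005 (SD, n = 4), 1048 ± 141 FPKM in BAPN+Cilengitide (n = 3), 1058 ± 86.4 FPKM in BAPN (n = 4) and 1151 ± 93.5 FPKM in PBS (n = 3). Rplp0, the scaffold of the same stalk, and Rpl4, a core protein of the large subunit, followed in that subunit, with means over 14 libraries of 620 and 456 FPKM. The third stalk protein gene, Rplp2, averaged 89.7 FPKM. In the small subunit Rps15, Rps3a1 and Rps4x led, with 686, 652 and 405 FPKM. The lowest members were Rpl30, Rpl35a and Rpl6l in the large subunit, with 43.4, 41.3 and 22.0 FPKM, and Rps27l, Rps15a and Rps28 in the small subunit, with 40.5, 29.0 and 26.8 FPKM. Just inside the threshold stood Rps15a, Rps28 and Rpl6l, the last annotated as a processed pseudogene, and just outside it Rpl21 (18.7 FPKM), Rpl7l1 (16.8 FPKM) and Rps3a2 (12.1 FPKM).

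**Figure D1:**
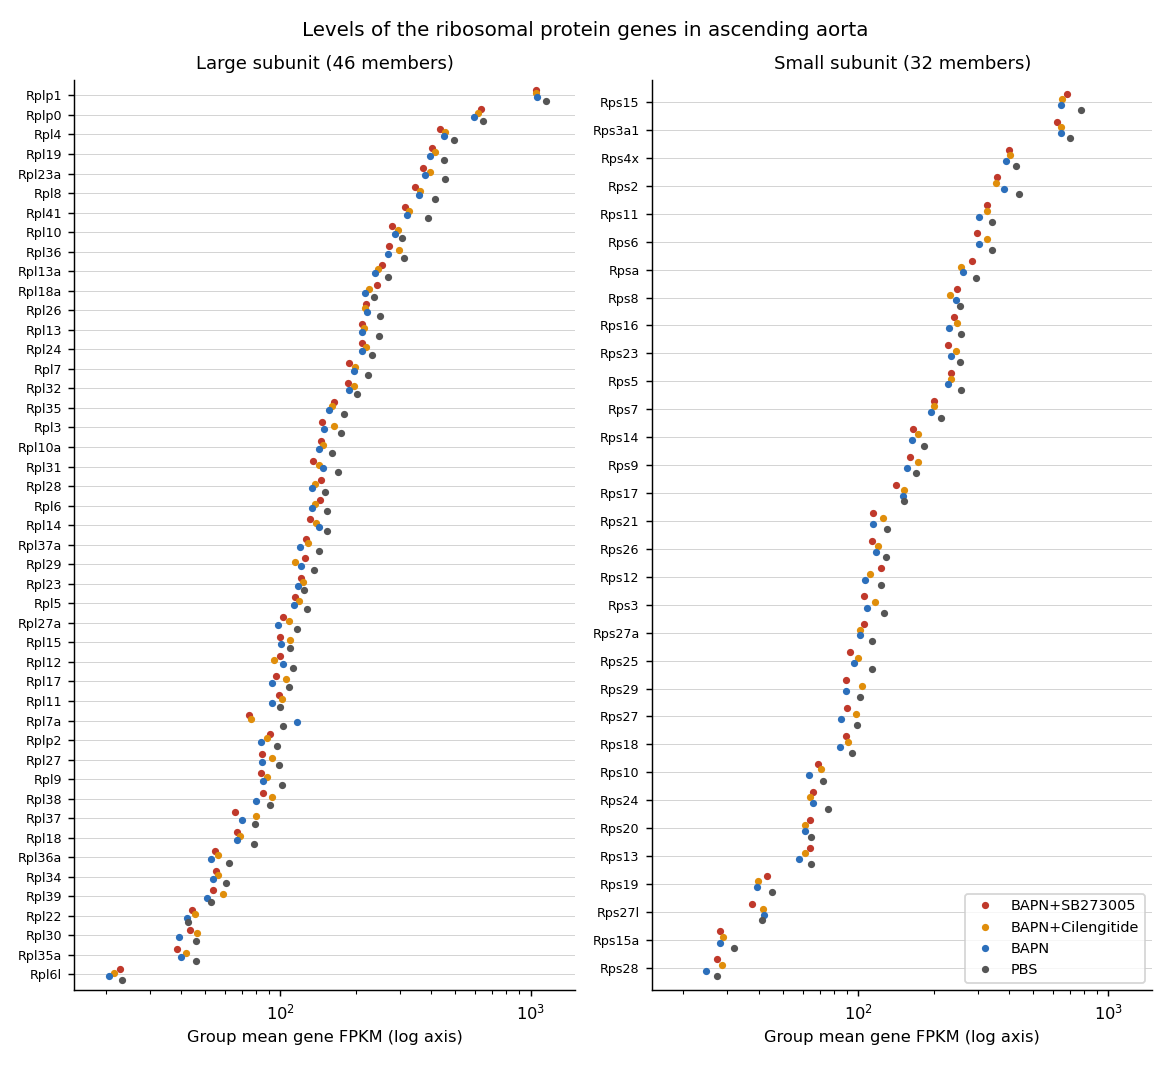
Group mean gene FPKM (log axis) of the 46 large and 32 small subunit genes, one row per gene, with a point for each of the 4 groups. Levels run from 22.0 FPKM for Rpl6l to 1073 FPKM for Rplp1 averaged over libraries, and the 4 points of a gene lie close together beside that range.

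The deposited gene level is an average over all exonic bases annotated to a gene, so it places genes with long annotated isoforms too low. In all 1202 values tested of genes of the pattern, the gene FPKM equalled the transcript FPKM values, each multiplied by its transcript's length, summed and divided by the gene's merged exon length, within 1%. Summing the transcript FPKM instead raised the level of a median member by 2.11-fold. Rps24, whose annotated isoforms include a retained-intron form of 4059 bases, stood at 67.7 gene FPKM and 710 summed transcript FPKM, the largest ratio of any member, at 10.5-fold. Across members the 2 levels had a Spearman rho of 0.79, a description over genes that share libraries. The lowest member by either measure was Rpl6l at 22.0 FPKM, and 3 genes below the threshold, among them Rpl21 at 44.1 FPKM, passed 20 FPKM by the transcript sum.

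Large and small subunit genes kept a nearly fixed proportion in every library. The summed large subunit level was 7730, 10731, 7231 and 8208 FPKM in BAPN+SB273005 replicates 1 to 4. It was 7378, 9625 and 9028 FPKM in BAPN+Cilengitide, 8968, 8556, 8296 and 7965 FPKM in BAPN, and 10121, 9412 and 8882 FPKM in PBS. Both inhibitor groups overlapped with BAPN and with PBS, and BAPN overlapped with PBS only through BAPN replicate 1, which lay above PBS replicate 3.

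The small subunit followed the same order of libraries, with 5382, 7629, 5034 and 5640 FPKM in BAPN+SB273005, 5078, 6661 and 6267 FPKM in BAPN+Cilengitide, 6196, 5865, 5734 and 5544 FPKM in BAPN, and 6958, 6468 and 6145 FPKM in PBS. The ratio of the large to the small sum was 1.43 ± 0.020 in BAPN+SB273005 (SD, n = 4), 1.45 ± 0.0062 in BAPN+Cilengitide (n = 3), 1.45 ± 0.0090 in BAPN (n = 4) and 1.45 ± 0.0054 in PBS (n = 3), and it ran from 1.41 to 1.46 over single libraries while the sums themselves varied by about 1.5-fold. The groups overlapped in this ratio. By summed transcript FPKM it ran from 1.28 to 1.36, and there the BAPN+SB273005 libraries (1.28 to 1.34) lay below the PBS libraries (1.34 to 1.35) without overlap. No test of either ratio was made. Together the members took 4.03% ± 0.424 of all FPKM in BAPN+SB273005, 4.89% ± 0.724 in BAPN+Cilengitide, 4.37% ± 0.464 in BAPN and 4.64% ± 0.344 in PBS.

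**Figure D2:**
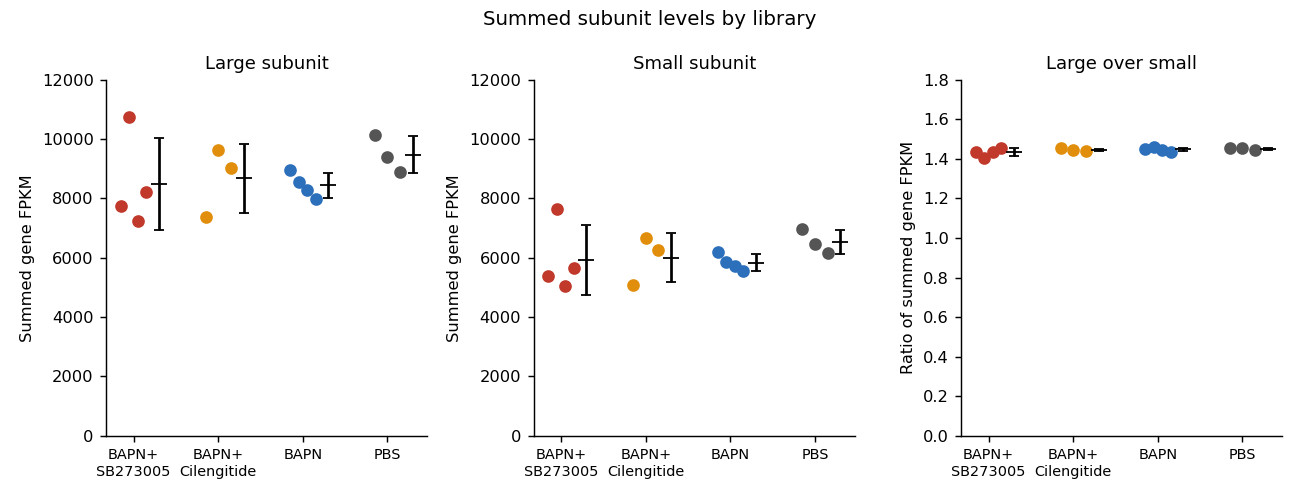
Summed gene FPKM of the large and of the small subunit genes and their ratio, one point per library, with the mean and SD of each group beside its points. The sums spread from 7231 to 10731 FPKM and from 5034 to 7629 FPKM, and the ratio from 1.41 to 1.46.

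Nearly all members moved together from library to library. Each gene's log2 FPKM was set against its own mean over the 14 libraries, and the median member then deviated by -0.17, 0.37, -0.26 and -0.09 in BAPN+SB273005 replicates 1 to 4, by -0.24, 0.16 and 0.06 in BAPN+Cilengitide, by 0.05, -0.04, -0.07 and -0.12 in BAPN, and by 0.23, 0.10 and 0.03 in PBS. The widest spread was thus within a single group, BAPN+SB273005. Replicate 2 of that group, the library with the highest mitochondrial share and the lowest smooth muscle sum, was the highest library for 54 of 78 members. The part of those differences between libraries in the level of ribosomal protein genes was not tested.

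Pairs of members had a median Pearson r of 0.85 over the 14 libraries, which share depth and scaling. The r of single members with the member median exceeded 0.9 for 53 genes, 29 of the large and 24 of the small subunit. It was at least 0.78 for all but 3 genes, namely Rps27l (-0.0055), Rpl7a (-0.0024) and Rpl17 (0.28). These 3 were picked out after their values were seen.

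**Figure D3:**
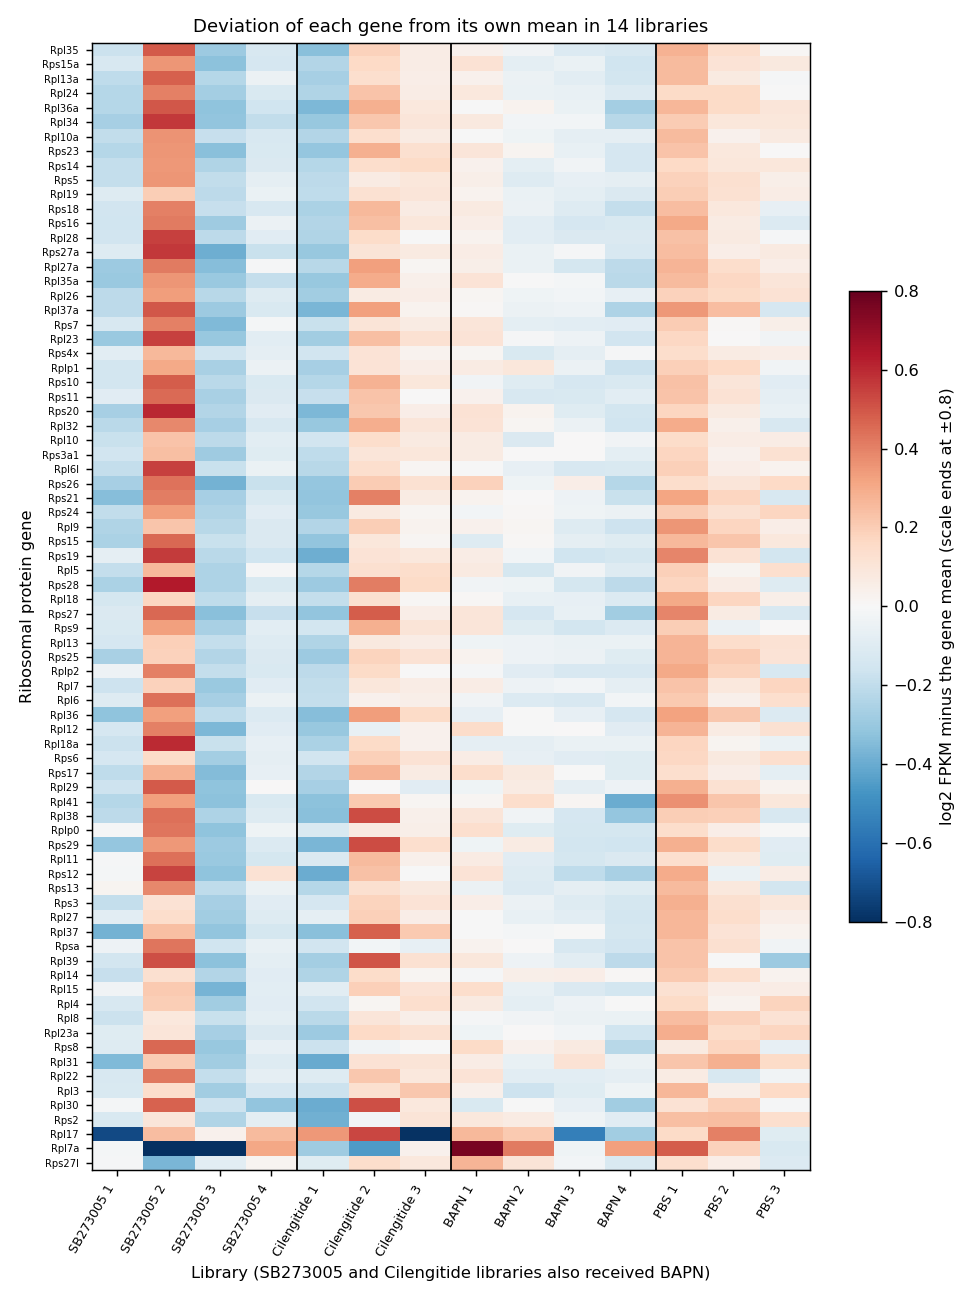
Log2 FPKM of each of the 78 genes minus its mean over the 14 libraries (colour, red high and blue low), with genes ordered by their correlation with the median member and libraries by group. Whole columns share a colour, most clearly the red BAPN+SB273005 replicate 2 (median deviation 0.37), and the bottom rows, Rpl17, Rpl7a and Rps27l, do not follow.

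Rps27l encodes a variant of the small subunit protein Rps27. It had 40.0, 31.2, 37.9 and 40.8 FPKM in BAPN+SB273005, 37.6, 44.4 and 42.7 FPKM in BAPN+Cilengitide, 48.7, 43.2, 39.7 and 37.0 FPKM in BAPN, and 44.2, 41.8 and 37.3 FPKM in PBS. Its lowest library was BAPN+SB273005 replicate 2, in which most other members were highest. Its partner Rps27 followed the other members (r = 0.92) and had its second highest value, 124 FPKM, in that library.

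Rpl7a, a large subunit protein, had 87.8, 50.9, 50.5 and 110 FPKM in BAPN+SB273005, 72.9, 64.8 and 91.0 FPKM in BAPN+Cilengitide, 150, 118, 86.8 and 111 FPKM in BAPN, and 124, 101 and 81.6 FPKM in PBS. The groups overlapped. Its counts, 4874 to 21394 per library, stood beside 5794 to 12083 counts assigned to the pseudogene Rpl7a-ps11, and all named pseudogenes of Rpl7a together held 44.2% of the reads of parent and pseudogenes. BAPN+SB273005 replicate 2 held the most reads of Rpl7a-ps11, 12083, and 5988 of Rpl7a. The part of read splitting between gene and pseudogenes in the level of Rpl7a was not tested, and that level is uncertain.

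Rpl17 is a large subunit protein near the exit of the nascent chain. Its reads fell in each library on only one of its annotated transcripts, the 775-base form in 6 libraries and the 1326-base form in the other 8. Both forms occurred in all 4 groups. Its named pseudogenes held 66.5% of the reads of parent and pseudogenes, the only member of 56 with named pseudogenes in the table for which that share passed 50%; the median was 5.21%. Rps12, with 44.6%, is uncertain for the same reason. The level of Rpl17 is therefore uncertain as well.

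None of the 78 members passed the test in any of the 6 comparisons. Each comparison was read from edgeR's quasi-likelihood fit over 13294 genes and all 14 libraries, with Benjamini-Hochberg adjustment over all genes and a threshold of 0.05. Against the count of 0 of 78 members stood 0.0301% of all tested genes in BAPN+SB273005 against BAPN, 0% in BAPN+Cilengitide against BAPN, 0% in BAPN+SB273005 against BAPN+Cilengitide, 13.2% in BAPN+SB273005 against PBS, 5.58% in BAPN+Cilengitide against PBS and 0.233% in BAPN against PBS. At an unadjusted p under 0.05, 1 member was found in BAPN+SB273005 against BAPN, where 16.1% of all genes were. In the other 5 comparisons 0 members were found, beside 6.07% of all genes in BAPN+Cilengitide against BAPN, 9.21% in BAPN+SB273005 against BAPN+Cilengitide, 29.1% in BAPN+SB273005 against PBS, 20.2% in BAPN+Cilengitide against PBS and 12% in BAPN against PBS. DESeq2 and limma on log2 FPKM or TPM also called 0 members in each comparison.

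The intervals of the differences give a size of difference that could be missed, for each gene taken alone. They are not widened for the number of members or comparisons, and they do not cover the library set or reads assigned to pseudogenes. In each comparison, at least 77 of 78 members had a 95% interval inside a 2-fold difference either way, and 57 to 71 had one inside a 1.5-fold difference. The exception to the 2-fold bound was Rpl7a in BAPN+SB273005 against BAPN and in BAPN+Cilengitide against BAPN.

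**Figure D4:**
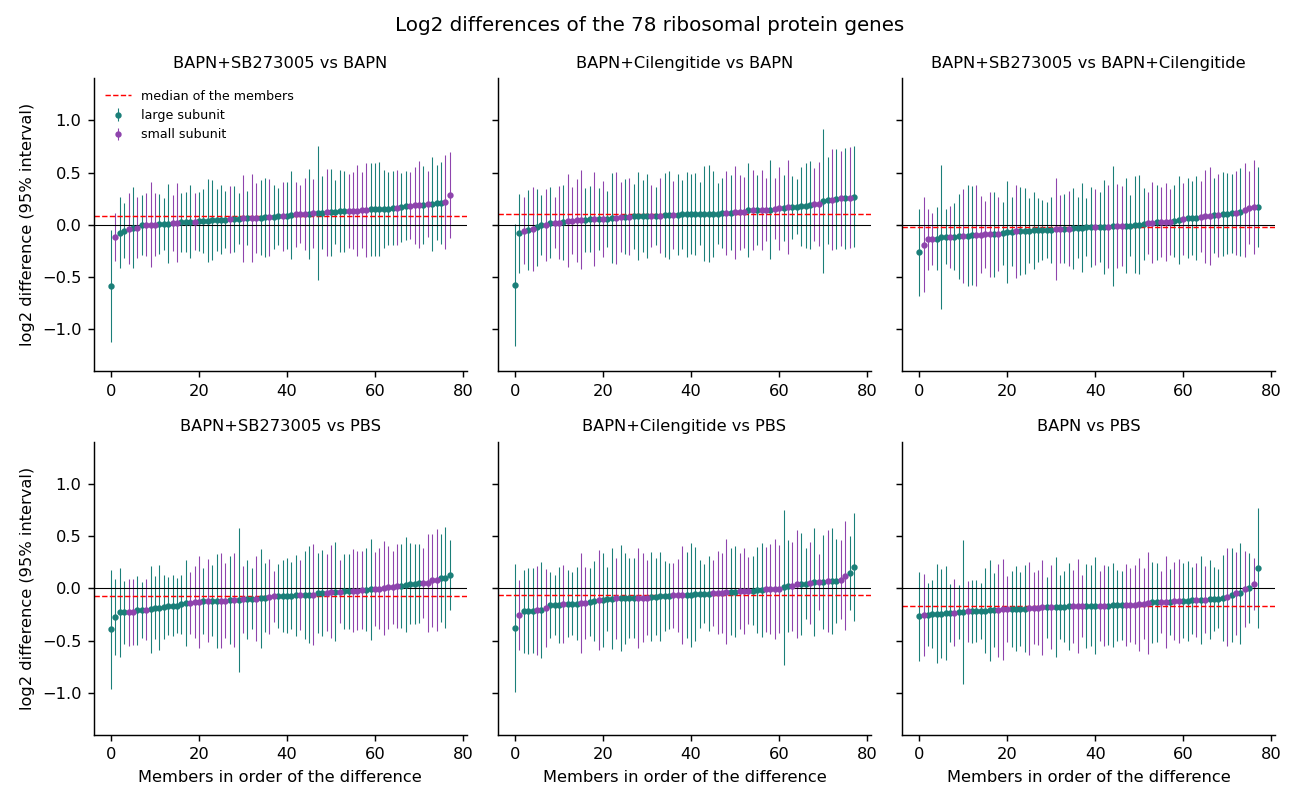
Log2 differences of the 78 members with 95% intervals from the edgeR fit, ordered by size in each of the 6 comparisons, with large and small subunit genes in different colours and the median member as a dashed line. Nearly all intervals include 0, and the median is lowest in BAPN against PBS, at -0.17.

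In BAPN aortas against PBS, 75 of 78 members had a negative log2 difference. The median was -0.17 over all members, -0.17 in the large and -0.16 in the small subunit, where that of all tested genes was 0.0016. The median over all members stayed negative under all 27 other settings, between -0.21 and -0.05. Some of those settings leave out a library from outside both groups, which can hardly move this median. The value nearest 0 came with a term for the library set, which rests on BAPN+SB273005, the only group with libraries of both sets. At an unadjusted p under 0.05 the count of members was 18 when the fit held the BAPN and PBS libraries alone, beside 15.8% of all genes in that fit. The smallest p belonged to Rpl27, a large subunit protein, with 88.1, 84.8, 83.4 and 79.9 FPKM in BAPN and 106, 97.4 and 91.8 FPKM in PBS. The Rpl27 groups did not overlap, and its log2 difference of -0.22 (SE 0.12, 95% interval -0.49 to 0.037) had an adjusted p of 0.524 by edgeR. Rpl23a, which binds near the exit tunnel, had 379 ± 18.8 FPKM in BAPN (SD, n = 4) and 453 ± 24.0 FPKM in PBS (n = 3), a log2 difference of -0.25 (SE 0.14, adjusted p = 0.537 by edgeR).

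For 28 of 78 members every BAPN library lay below every PBS library in FPKM, 35.9%, where the same held for 7.56% of all tested genes. That count depended on the scale: it was 34 members by TMM-scaled CPM, beside 7.54% of all genes, and 1 member by TPM, beside 3.19% of all genes, scales added after the data were seen. Members move together, so these counts are not independent of each other. Tested genes outside the family with transcripts under 1000 bases had a median log2 difference of -0.08 in the same comparison. Summed macrophage and monocyte markers were 339 to 817 FPKM in BAPN and 163 to 311 FPKM in PBS, fibroblast markers 1575 to 3153 FPKM in BAPN and 1106 to 1378 FPKM in PBS, neutrophil markers 2.77 to 3.83 FPKM in BAPN and 0.234 to 0.659 FPKM in PBS, and cardiomyocyte markers 11.2 to 20.9 FPKM in BAPN and 40.3 to 58.9 FPKM in PBS. None of these 4 sums overlapped between the groups. They are the only ones of 12 marker lists that separated. The sums of the other lists overlapped, among them smooth muscle (6957 to 10587 FPKM in BAPN and 8940 to 10628 FPKM in PBS) and endothelial markers (63.8 to 116 FPKM in BAPN and 76.8 to 92.7 FPKM in PBS). The part of cell makeup in the ribosomal protein values was not tested. In bulk tissue, fewer cells of a type and less RNA per cell cannot be told apart.

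In BAPN+SB273005 against BAPN, the median member differed by 0.08 (0.07 in the large and 0.10 in the small subunit), beside 0.019 for all tested genes. That sign turned to -0.11 on the TPM scale, to -0.0058 with a term for the library set, to just below 0 with limma on log2 FPKM at either pseudocount and to -0.09 without BAPN+SB273005 replicate 2. Rpl7a, the uncertain gene described above, had the smallest p, with 74.7 ± 29.2 FPKM in BAPN+SB273005 and 117 ± 26.1 FPKM in BAPN (SD, n = 4 each), a log2 difference of -0.59 (SE 0.25, adjusted p = 0.270 by edgeR). Rps12, of the small subunit head, came next, with 124 ± 31.4 FPKM in BAPN+SB273005 and 106 ± 12.4 FPKM in BAPN and a log2 difference of 0.29 (SE 0.19, adjusted p = 0.468).

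In BAPN+Cilengitide against BAPN, the median member differed by 0.10, and 70 of 78 differences were positive. That median ran from -0.018 without BAPN+Cilengitide replicate 2 to 0.21 without replicate 1 of the same group, so its sign rested on 1 library. Rpl7a again had the smallest p, with 76.2 ± 13.4 FPKM in BAPN+Cilengitide (SD, n = 3) and 117 ± 26.1 FPKM in BAPN (n = 4), and a log2 difference of -0.57 (SE 0.27, adjusted p = 0.795 by edgeR). Rpl27 had 92.3 ± 8.30 FPKM in BAPN+Cilengitide and 84.1 ± 3.41 FPKM in BAPN, with a log2 difference of 0.17 (SE 0.12, adjusted p = 0.832). Both inhibitor comparisons use the same 4 BAPN libraries.

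The 2 integrin αV inhibitors were also compared with each other, at doses the labels do not give. The median member differed by -0.02 in BAPN+SB273005 against BAPN+Cilengitide, with a range over the 27 other settings from -0.30 (TPM) to 0.09 (without BAPN+Cilengitide replicate 2). Rpl37, a zinc-binding large subunit protein, had the smallest p, with 65.8 ± 13.4 FPKM in BAPN+SB273005 (SD, n = 4) and 80.1 ± 21.8 FPKM in BAPN+Cilengitide (n = 3), a log2 difference of -0.26 (SE 0.19, 95% interval -0.68 to 0.15, adjusted p = 0.681 by edgeR). Rps27l followed, at 37.5 ± 4.35 FPKM in BAPN+SB273005 and 41.6 ± 3.55 FPKM in BAPN+Cilengitide (log2 difference -0.14, SE 0.11, adjusted p = 0.718). All 78 intervals lay inside a 2-fold difference and 71 inside a 1.5-fold difference.

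In BAPN+SB273005 against PBS, the median member differed by -0.07, and it stayed below 0 under all 28 other settings, between -0.26 without BAPN+SB273005 replicate 2 and -0.0053 without replicate 3 of that group. Here too, settings that leave out a library from outside both groups can hardly move the median. Without replicate 2, 36 members had an unadjusted p under 0.05, beside 30% of all genes, and the smallest adjusted p of a member was 0.0592 by edgeR. Rpl8, which contributes to the peptidyl transferase centre, had the smallest p, with 346 ± 30.1 FPKM in BAPN+SB273005 (SD, n = 4) and 416 ± 19.0 FPKM in PBS (n = 3), a log2 difference of -0.21 (SE 0.12, adjusted p = 0.295 by edgeR). Rpl23a had 370 ± 38.7 FPKM in BAPN+SB273005 and 453 ± 24.0 FPKM in PBS (log2 difference -0.23, SE 0.14, adjusted p = 0.300). In BAPN+Cilengitide against PBS the median was -0.06, and it turned to 0.08 on the TPM scale, to 0.05 with a term for the library set and to 0.05 without BAPN+Cilengitide replicate 1. Rps2, a small subunit protein at the mRNA entry, had the smallest p there, with 290, 373 and 407 FPKM in BAPN+Cilengitide and 448, 450 and 416 FPKM in PBS, which did not overlap, a log2 difference of -0.25 (SE 0.16, adjusted p = 0.403), and Rpl7a differed by -0.38 (SE 0.28, adjusted p = 0.513).

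In FPKM, every BAPN+SB273005 library lay below every PBS library for 3 members, 3.85%, beside 14% of all genes, and every BAPN+Cilengitide library lay below every PBS library for 8 members, 10.3%, beside 18.4% of all genes. Across the 3 comparisons among BAPN-fed groups, 0 members separated in either direction, beside 7.87% of all genes in BAPN+SB273005 against BAPN, 10.5% in BAPN+Cilengitide against BAPN and 6.53% in BAPN+SB273005 against BAPN+Cilengitide. These counts too depended on the scale. Every BAPN+SB273005 library lay below every PBS library for 18 members by TPM, 23.1%, beside 10.1% of all genes, and for 0 by TMM-scaled CPM, beside 11.1% of all genes. For BAPN+Cilengitide below PBS the count was 0 by TPM, beside 6.45% of all genes, and 3 members by TMM-scaled CPM, 3.85%, beside 16.1% of all genes. By TPM, 2 members, 2.56%, lay lower in every BAPN+SB273005 than in every BAPN+Cilengitide library, beside 11.7% of all genes. On the TPM scale the median of all tested genes itself was -0.15 in BAPN+SB273005 against BAPN (0.019 in the edgeR fit), -0.23 in BAPN+SB273005 against BAPN+Cilengitide (0.016), -0.08 in BAPN+SB273005 against PBS (0.021) and 0.13 in BAPN+Cilengitide against PBS (-0.018). The member medians on that scale are to be read beside these values.

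The members with particular roles showed the same small differences. Rpl5 and Rpl11, which with 5S RNA form the particle that binds Mdm2 when ribosome assembly fails, averaged 114 and 98.4 FPKM in BAPN+SB273005, 119 and 101 FPKM in BAPN+Cilengitide, 113 and 92.3 FPKM in BAPN, and 127 and 99.6 FPKM in PBS. Rps6, the substrate of S6 kinase, had 298 ± 37.2 FPKM in BAPN+SB273005 (SD, n = 4), 327 ± 39.9 FPKM in BAPN+Cilengitide (n = 3), 304 ± 15.6 FPKM in BAPN (n = 4) and 343 ± 10.8 FPKM in PBS (n = 3). Rps6 groups overlapped between both inhibitor groups and PBS, and all 4 BAPN libraries (294 to 327 FPKM) lay below the 3 PBS libraries (331 to 353 FPKM). Rpl38, known in mouse development for its effect on Hox mRNA translation, had 85.0 ± 20.6 FPKM in BAPN+SB273005, 92.5 ± 27.7 FPKM in BAPN+Cilengitide, 80.2 ± 9.43 FPKM in BAPN and 90.9 ± 11.3 FPKM in PBS. Rpsa, also known as the laminin receptor, had 244 to 368 FPKM in BAPN+SB273005, 245 to 269 FPKM in BAPN+Cilengitide, 246 to 278 FPKM in BAPN and 268 to 321 FPKM in PBS, and these ranges overlapped. Rps27a, which is made as a fusion with ubiquitin, and Rpl10, which closes the assembly of the large subunit, averaged 105 and 290 FPKM over the 14 libraries.

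Paralogs that can replace a member were lower than it in every group mean. Rpl22l1, the paralog of Rpl22, had 8.81 ± 2.45 FPKM in BAPN+SB273005, 9.63 ± 2.49 FPKM in BAPN+Cilengitide, 11.1 ± 0.598 FPKM in BAPN and 12.3 ± 3.74 FPKM in PBS, where Rpl22 averaged 42.5 to 45.6 FPKM. Rps4l averaged 8.61 FPKM beside 405 FPKM for Rps4x, and Rpl7l1 16.8 FPKM, where Rpl7 had group means of 188 to 223 FPKM. Rpl3l, the striated muscle form of Rpl3, was 17.2 FPKM in PBS replicate 2 and 8.30 FPKM in BAPN replicate 3, against 0.206 to 2.23 FPKM in the other 12 libraries. Rpl39l, a testis form, was listed at 0 in 11 libraries, and Rpl39 averaged 53.7 FPKM. Rpl36al, the paralog of Rpl36a outside the naming pattern, was lower in BAPN+SB273005 than in PBS: it had 38.9 ± 1.88 FPKM in BAPN+SB273005 (SD, n = 4) and 51.2 ± 5.24 FPKM in PBS (n = 3), a log2 difference of -0.33 (SE 0.093, adjusted p = 0.0335 by edgeR). That call was lost under 10 of 28 alternatives, among them the replicate block (adjusted p = 0.0575 by edgeR), only libraries with 0 counts of H2-Ea (0.169), and leaving out PBS replicate 1 (0.108), PBS replicate 2 (0.0979), BAPN+SB273005 replicate 1 (0.0507) or BAPN+SB273005 replicate 3 (0.0667). Rpl36a itself had 54.6 ± 15.6 FPKM in BAPN+SB273005 and 62.2 ± 3.71 FPKM in PBS.

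The total level of Rps24 was not called in any comparison, but the proportion of its isoforms was in 1. Rps24 is a small subunit protein, mutated in some people with Diamond-Blackfan anaemia, and its pre-mRNA is alternatively spliced near the end of the coding part. The main transcripts differ by an 18-base exon at chr14:24494052-24494069, plus strand, of GRCm38 (GENCODE vM21), the fifth of 7 exons in the longer form, and the other form has 6 exons. The annotated form without the exon also begins 12 bases further upstream, and the remaining exon ends are identical. The annotated coding lengths are 393 bases with the exon and 390 bases without it. The sequences below show the exon in capitals with 6 bases of its neighbours, and the junction that forms without it.

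Rps24 with the exon: aaaaagAAATGAAATACCTAGCAGtgagtg
Rps24 without the exon: aaaaagtgagtg

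The transcript with the exon had 267, 215, 264 and 402 FPKM in BAPN+SB273005, 289, 418 and 464 FPKM in BAPN+Cilengitide, 426, 480, 537 and 467 FPKM in BAPN, and 627, 665 and 664 FPKM in PBS. Every BAPN-fed library lay below all 3 PBS libraries. The transcript without the exon had 270, 485, 179 and 220 FPKM in BAPN+SB273005, 212, 294 and 252 FPKM in BAPN+Cilengitide, 235, 151, 144 and 150 FPKM in BAPN, and 98.0, 120 and 139 FPKM in PBS. Every BAPN-fed library lay above the 3 PBS libraries for this form. Together both transcripts made up 85.8% to 96.5% of the summed transcript FPKM of Rps24.

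The share of the form with the exon was 49.7%, 30.8%, 59.6% and 64.6% in BAPN+SB273005 replicates 1 to 4 (mean 51.2%), 60.4% ± 3.82 in BAPN+Cilengitide (n = 3), 73.8% ± 6.37 in BAPN (n = 4) and 84.6% ± 1.91 in PBS (n = 3). Its lowest value, 30.8%, was in BAPN+SB273005 replicate 2, which also had the lowest smooth muscle sum. The log2 ratio of the 2 main transcripts (pseudocount of 1 FPKM) was tested with limma over 1376 genes whose second transcript averaged 5 FPKM or more, 55 of them members, a test chosen after the data were seen. In BAPN+SB273005 against PBS, Rps24 fell by 2.39 on the log2 ratio scale (SE 0.43, 95% interval -3.34 to -1.45, adjusted p = 0.0370 by limma), the only call among the 55 members, where 5 of the 1376 genes, 0.363%, were called. In the other 5 comparisons limma called 0 of the 55 members, beside 0.218% of all genes in BAPN+SB273005 against BAPN and 0% in the rest. At an unadjusted p under 0.05 stood 1 to 4 of the 55 members in those 5 comparisons, beside 4.29% to 6.98% of the 1376 genes.

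The other comparisons did not pass for Rps24. Its log2 ratio differed by -1.84 in BAPN+Cilengitide against PBS (adjusted p = 0.363 by limma), by -1.45 in BAPN+SB273005 against BAPN (adjusted p = 0.453), by -0.94 in BAPN against PBS (adjusted p = 0.996), by -0.90 in BAPN+Cilengitide against BAPN (adjusted p = 0.912) and by -0.55 in BAPN+SB273005 against BAPN+Cilengitide (adjusted p = 0.862). The call against PBS was lost with the replicate block (adjusted p = 0.137), with only libraries of 0 H2-Ea counts (0.311) and when PBS replicate 1 (0.140), 2 (0.139) or 3 (0.123) was left out. It was also lost without BAPN+SB273005 replicate 1 (0.0874), BAPN replicate 2 (0.0705) or 4 (0.0509), or BAPN+Cilengitide replicate 1 (0.0550), 2 (0.0514) or 3 (0.0657), and with a minimum of 2 FPKM for the second transcript (0.0791). It held without BAPN+SB273005 replicate 2 (adjusted p = 0.0293 by limma) and with a term for the library set (0.0440). The median smooth muscle sum was 5108 FPKM in BAPN+SB273005, 7268 FPKM in BAPN+Cilengitide, 8321 FPKM in BAPN and 10147 FPKM in PBS, and that of macrophage markers 833, 818, 529 and 171 FPKM in the same groups. The part of cell makeup in the isoform share was not tested. Transcript levels are estimates from short reads.

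**Figure D5:**
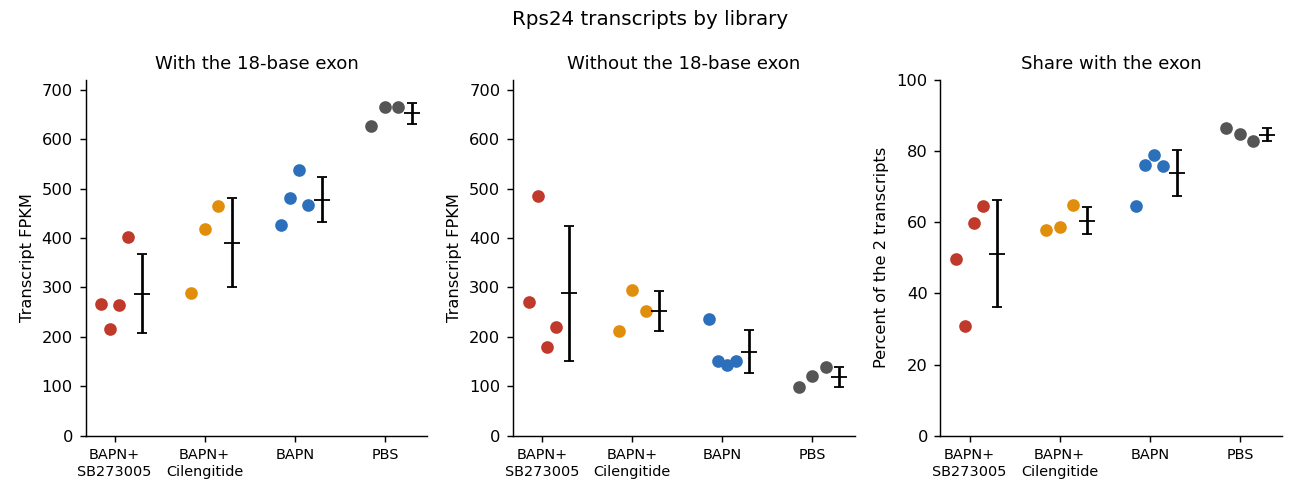
FPKM of the Rps24 transcripts with and without the 18-base exon and the share of the form with the exon (percent of both), one point per library, with the mean and SD of each group beside its points. The PBS libraries lie at 82.7% to 86.5% and all 11 BAPN-fed libraries below them, down to 30.8%.

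Rpl12, a protein of the stalk base, had the next smallest p in the same test. Its transcript annotated for nonsense-mediated decay had 27.6 ± 9.16 FPKM in BAPN+SB273005 (SD, n = 4) and 15.1 ± 1.74 FPKM in PBS (n = 3), and its main transcript 263 ± 63.4 FPKM in BAPN+SB273005 and 310 ± 21.7 FPKM in PBS. The log2 ratio differed by -1.04 (SE 0.22, adjusted p = 0.0804 by limma), which does not pass.

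Among 10 lists of genes that make, regulate or partner with ribosomes, 11 of the 247 tested genes passed in BAPN+SB273005 against PBS, 4 higher and 7 lower, beside 13.2% of all tested genes. In BAPN+Cilengitide against PBS 4 passed, beside 5.58% of all tested genes. None did by edgeR in the 3 comparisons among BAPN-fed groups or in BAPN against PBS. At an unadjusted edgeR p under 0.05, 22 of the 247 stood in BAPN+SB273005 against BAPN, beside 16.1% of all tested genes. The counts were 8 in BAPN+Cilengitide against BAPN (6.07% of all tested genes), 18 in BAPN+SB273005 against BAPN+Cilengitide (9.21%) and 20 in BAPN against PBS (12%). They were 18 of the 247 in BAPN+Cilengitide against PBS (20.2% of all tested genes) and 61 of the 247 in BAPN+SB273005 against PBS (29.1%). In BAPN+SB273005 against PBS the calls were 0 of 21 elongation and other 5′TOP translation genes, 1 higher of 10 snoRNA host genes, 1 lower of 24 initiation factors, 0 of 12 RNA polymerase I genes, 1 higher of 35 assembly factors, 1 higher of 18 genes of the TOR pathway, 1 higher of 7 stress partners, 5 lower of 78 mitochondrial ribosomal proteins, 0 of 37 proteasome subunits and 1 lower of 5 ribosomal proteins outside the naming pattern (Rpl36al). The medians of these lists lay between -0.16 for mitochondrial ribosomal proteins and 0.38 for snoRNA host genes.

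The stress partner was Cdkn1a, the p53 target that halts the cell cycle, with 26.3 ± 6.32 FPKM in BAPN+SB273005 (SD, n = 4) and 10.6 ± 0.248 FPKM in PBS (n = 3), a log2 difference of 1.36 (SE 0.22, adjusted p = 0.00388 by edgeR). Of the mitochondrial ribosomal proteins, Mrpl17 had 4.29 ± 0.397 FPKM in BAPN+SB273005 and 6.04 ± 0.348 FPKM in PBS, with a log2 difference of -0.43 (SE 0.085, adjusted p = 0.00804). Mrpl18 and Mrpl23 fell by 0.52 and 0.42 on the log2 scale (adjusted p = 0.0190 and 0.0229). The snoRNA host was Snhg15 (log2 difference 1.30, adjusted p = 0.0200), the initiation factor Eif1ax (-0.55, adjusted p = 0.0314), the assembly factor Gnl3 (0.40, adjusted p = 0.0279) and the TOR list's gene Max, the partner of Myc (0.31, adjusted p = 0.0338). Cdkn1a kept its call under all 28 alternatives, and the others lost theirs under 3 to 14 of 27 or 28, each of them with only the libraries of 0 H2-Ea counts. Leaving out PBS replicate 2 ended the calls of Mrpl18, Mrpl23, Snhg15, Eif1ax, Gnl3 and Max.

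In BAPN+Cilengitide against PBS, 4 of the 247 tested list genes were called, all higher, beside 5.58% of all tested genes. Cdkn1a had a log2 difference of 1.01 (adjusted p = 0.0259 by edgeR) and the initiation factor Eif1a one of 0.82 (adjusted p = 0.0399). Gnl3 differed by 0.47 (adjusted p = 0.0329) and Max by 0.33 (adjusted p = 0.0496). These calls and those of BAPN+SB273005 share the 3 PBS libraries. All 4 were lost when the library set was modelled (adjusted p of 0.271 to 0.552) and without PBS replicate 1, PBS replicate 2 or BAPN+Cilengitide replicate 2.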

How the data were processed

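Per the submitters' processing notes, reads were processed with HISAT2 2.2.1 and StringTie 2.1.6 on mm10. The deposited gene and transcript tables hold FPKM values and estimated counts for 14 libraries, and the tables' values show that gene FPKM is spread over merged exon length. The deposited estimated counts are already whole numbers, so rounding changed nothing. The 13294 genes that reached 1 FPKM in 3 or more libraries were tested with edgeR 4.0.16 (TMM, quasi-likelihood, R 4.3.3), and Benjamini-Hochberg adjustment was over all of them. DESeq2 1.42.0 and limma 3.58.1 served as alternatives. The test was checked on simulated data. Transcript ratios were tested with limma. The members and gene lists were chosen with earlier results of these data known. Named genes were the 3 highest and 3 lowest of each subunit, the 2 smallest p in each comparison, a list of roles and paralogs, the genes at the threshold, and up to 3 called genes per list. No counting strand is given in the sources used here. Same-group libraries differed beyond sampling noise, so all were counted.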

Additional observations from a re-analysis of the deposited data

Results flagged for a closer look

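In groups of 4 libraries, 97 sets of values were examined for a library whose gap to its nearest neighbour took up most of the group's range, and 12 were found. Chance flags about 1 in 20 groups, but members move together (median r of 0.85) and 8 of the 12 are the same library, BAPN+SB273005 replicate 2, so that rate is no yardstick for the count. Replicate 2 was high for Rpl35a (52.3 FPKM), Rpl6l (31.8 FPKM), Rps15 (934 FPKM), Rps28 (40.9 FPKM), Rpsa (368 FPKM), Rpl22 (58.0 FPKM), Rpl36a (77.7 FPKM) and Rps3a2, which is below the threshold (11.8 FPKM). BAPN replicate 1 stood above the other BAPN libraries for Rplp0 (675 FPKM), Rpl22 (46.8 FPKM) and the Rps24 transcript without the 18-base exon (235 FPKM). BAPN replicate 4 stood below the others for Rpl37 (65.4 FPKM).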

How the results depend on the processing

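The count of 0 called members held in all 6 comparisons under every alternative run. The number of the 78 members lower in every BAPN library than in every PBS library was 28 by FPKM (35.9%, beside 7.56% of all tested genes). It was 34 by TMM-scaled CPM (43.6%, beside 7.54%) and 1 by TPM (1.28%, beside 3.19%). The ratio of large to small subunit levels moved to 1.55 in BAPN+SB273005, 1.56 in BAPN+Cilengitide, 1.57 in BAPN and 1.57 in PBS without genes that have a paralog, and to 1.09, 1.08, 1.11 and 1.10 in the same groups with median log2 FPKM in place of the sum. The replicate block changed no member's call at the gene level and ended that of the Rps24 ratio (adjusted p = 0.137 by limma). Same-numbered libraries of different groups had correlations of their deviations between -0.20 and 0.37 (median 0.16, against -0.049 for other numbers). Pairing required every pair to pass 0.1, and 7 of 19 did not, so the numbers were not taken as pairs. The 3 pairs of BAPN+SB273005 with BAPN+Cilengitide did pass, and 0 members were called there with the block. Log2 differences of the genes named for their p kept their sign under every alternative, and of 356 alternatives to the 13 called differences 120 lost the call. The Rps24 ratio in BAPN+SB273005 against BAPN+Cilengitide turned to 0.26 with the library set as a term; the cause was not tested. With 3 or 4 libraries per group, differences of about 1.5-fold, and smaller ones, could go uncalled for members. Rpl7a differed by -0.59 on the log2 scale in BAPN+SB273005 against BAPN and was not called (adjusted p = 0.270 by edgeR).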
